A study of Homo sapiens with 18 samples.

Results

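The 10 genes described here are ADM, VEGFA, CA9, PFKFB3, PFKFB4, SLC2A1, HK2, LDHA, PDK1 and BNIP3, a list of hypoxia-inducible factor (HIF) targets and genes of glycolysis. They were taken by symbol from a table of 36684 gene symbols, and all 10 passed the filter on low counts. The cells were Hep3B, a human hepatoma line, sequenced in 6 groups of 3 libraries. Con cells received no fatty acid, and the model group received free fatty acids (FFA), which load hepatocytes with lipid. The FUCO-0.5, FUCO-1 and FUCO-2 groups received FFA together with fucoxanthin (FUCO), a marine carotenoid, at 0.5, 1 or 2 μM. The RES group received FFA with Resmetirom, a thyroid hormone receptor β agonist used as the reference drug of the study. The study's text gives 3 biological replicates per condition. The FFA concentration, the treatment times and the RES dose of these libraries are not given in the sources used here, and no label names a low-oxygen treatment. A difference between the FUCO and RES groups is therefore not a comparison at matched doses.

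HIF is a transcription factor made of an oxygen-sensitive α subunit (HIF1A or EPAS1) and a stable partner (ARNT). When oxygen is plentiful, prolyl hydroxylases mark the α subunit for destruction through VHL, so its mRNA level says little about its protein level. When oxygen is short, HIF binds a short DNA core in its target genes and raises glucose uptake, glycolysis, lactate output and blood vessel signals. Several of its targets also answer to other inputs such as insulin, MYC, the integrated stress response and fatty acid receptors, and hepatocytes can both burn and make glucose.

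The letters of the HIF core were searched in the promoter sequences that RefSeq gives for GRCh38.p14, from 250 bases before to 50 bases after each annotated start. The motif was ACGTG or GCGTG on either strand, and the E-box CACGTG, which the first of these lies within, was counted separately. A promoter entry was matched for 9 of the 10 genes, the exception being VEGFA. The core was present in 8 of the 9, against 48.4% of 27305 promoters, and occurred 3 or more times in 3 of the 9 (HK2, LDHA and BNIP3), against 7.6%. The E-box was present in 2 of the 9, LDHA and BNIP3, against 7.4%. PDK1 held no match in its window. The form ACGTG itself was present in CA9, HK2, LDHA and BNIP3, against 21.6% of all promoters. The promoters used as background were not matched for base content. GC content was 62.0% to 80.7% in the windows with a match and 36.3% in that of PDK1, and its part in the matches was not tested. In that assembly ADM lies at chr11:10305073-10307397, VEGFA at chr6:43770211-43786487, CA9 at chr9:35673928-35681159, PFKFB3 at chr10:6144921-6326637 and PFKFB4 at chr3:48517684-48563136. SLC2A1 lies at chr1:42925353-42958868, HK2 at chr2:74834127-74893359, LDHA at chr11:18394563-18408425, PDK1 at chr2:172555373-172724312 and BNIP3 at chr10:131967684-131981923. A match describes these letters only and is not evidence of binding. The 250 bases before the start are printed 5′ to 3′ for 5 genes: HK2 (chr2:74833877-74834126, plus strand), LDHA (chr11:18394313-18394562, plus), BNIP3 (chr10:131981924-131982173, minus), ADM (chr11:10304823-10305072, plus) and PFKFB4 (chr3:48556804-48557053, minus). The first 3 are shown for their repeated matches, and ADM and PFKFB4 because they changed by more than 1 on the log2 scale in a main comparison. CA9, which held few counts, also changed by more than 1 (−3.13 with RES against the model) and is not printed. Capitals mark the core on either strand, with overlapping matches joined. LDHA holds 1 further match after the start, which is not printed. The PFKFB4 window precedes an annotated start that lies inside the gene span given above, so it is not the sequence before the outermost start of that gene, while the other 4 windows end where the span begins.
HK2: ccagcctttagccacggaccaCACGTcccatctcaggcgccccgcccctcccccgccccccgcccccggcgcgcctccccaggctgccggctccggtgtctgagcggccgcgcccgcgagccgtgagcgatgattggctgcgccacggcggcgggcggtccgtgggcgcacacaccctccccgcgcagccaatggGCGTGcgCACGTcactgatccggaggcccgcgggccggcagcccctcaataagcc
LDHA: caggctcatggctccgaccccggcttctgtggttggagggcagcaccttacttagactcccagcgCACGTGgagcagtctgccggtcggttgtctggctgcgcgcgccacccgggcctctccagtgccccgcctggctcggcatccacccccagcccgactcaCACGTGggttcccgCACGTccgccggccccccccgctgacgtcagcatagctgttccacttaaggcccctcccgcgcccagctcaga
BNIP3: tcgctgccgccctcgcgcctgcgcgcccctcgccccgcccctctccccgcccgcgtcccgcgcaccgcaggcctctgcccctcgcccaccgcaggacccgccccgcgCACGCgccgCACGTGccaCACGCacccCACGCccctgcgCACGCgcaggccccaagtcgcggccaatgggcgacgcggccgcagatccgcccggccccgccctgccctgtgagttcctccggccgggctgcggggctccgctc
ADM: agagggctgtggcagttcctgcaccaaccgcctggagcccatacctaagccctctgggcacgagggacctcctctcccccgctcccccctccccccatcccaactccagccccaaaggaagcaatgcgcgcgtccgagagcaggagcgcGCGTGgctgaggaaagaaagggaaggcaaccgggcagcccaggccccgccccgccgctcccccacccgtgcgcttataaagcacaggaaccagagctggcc
PFKFB4: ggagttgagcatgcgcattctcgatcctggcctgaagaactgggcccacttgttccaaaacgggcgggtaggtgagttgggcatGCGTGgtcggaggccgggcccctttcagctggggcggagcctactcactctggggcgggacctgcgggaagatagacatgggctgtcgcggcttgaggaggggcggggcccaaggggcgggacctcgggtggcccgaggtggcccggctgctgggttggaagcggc

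The libraries held 16916688 to 23083498 counts each. Levels are given as CPM, read counts scaled by library size and TMM factor, as mean ± SD of 3 libraries unless stated. All fold changes and adjusted p-values are from edgeR's quasi-likelihood test with Benjamini-Hochberg adjustment over 14557 genes, and a gene was called at an adjusted p under 0.05. That test returns no SE. The SE given after a log2 fold change is its absolute value divided by the square root of the F statistic, which is approximate at low counts. The RES libraries stood apart from all others on the first principal component (48.8 to 50.5, against at most 0.604). Con replicate 1 lay nearer to the model on the second (15.1, against 24.4 and 26.0 in the other two), so values against Con are also given without it where that changed a call or moved a called value by over 1.5 times, and for some others. The hepatocyte list (ALB, AFP, APOA1, APOB, TTR, SERPINA1 and HNF4A) summed to 57000 to 61300 CPM in Con, 47200 to 48000 in the model, 31900 to 36200 in FUCO-2 and 13900 to 14200 in RES. Markers of other cell types were low beside these sums, with endothelial sums of 0.746 to 4.11 CPM. The stellate and fibroblast list summed to 11.3 to 36.7 CPM and was highest in Con (28.1 to 36.7). Of its 7 genes 2 were at 0 counts in each group, among them ACTA2, and the others were detected. The immune list summed to 5.52 to 7.22 CPM in Con and 14.2 to 22.8 in the FFA groups. In bulk RNA of the Hep3B line, fewer cells that express a marker and less of its RNA per cell cannot be told apart. The part of these shifts in the results was not tested.

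Per kilobase of transcript, the most abundant of the genes over all libraries were VEGFA (76.2 CPM per kb) and LDHA (75.2), followed by BNIP3 (34.3), HK2 (21.0) and ADM (11.9). SLC2A1 (4.42), PFKFB3 (3.97) and PFKFB4 (3.48) were lower, and PDK1 (0.994, over a 14072-base transcript) and CA9 (0.694) the lowest. Tested for any difference among the 6 groups, 9 of the 10 were called, against 67% of all genes. BNIP3, a mitophagy receptor, was the exception, with an adjusted p of 0.106 and group means of 50.3 to 58.8 CPM. Its locus overlaps PPP2R2D, whose row holds 59.8% as many counts, and 40 pseudogene rows of its own hold 4.65% as many. The counting strand and the handling of reads with several matches are not given in the sources used here, so the BNIP3 level is uncertain.

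**Figure D1:**
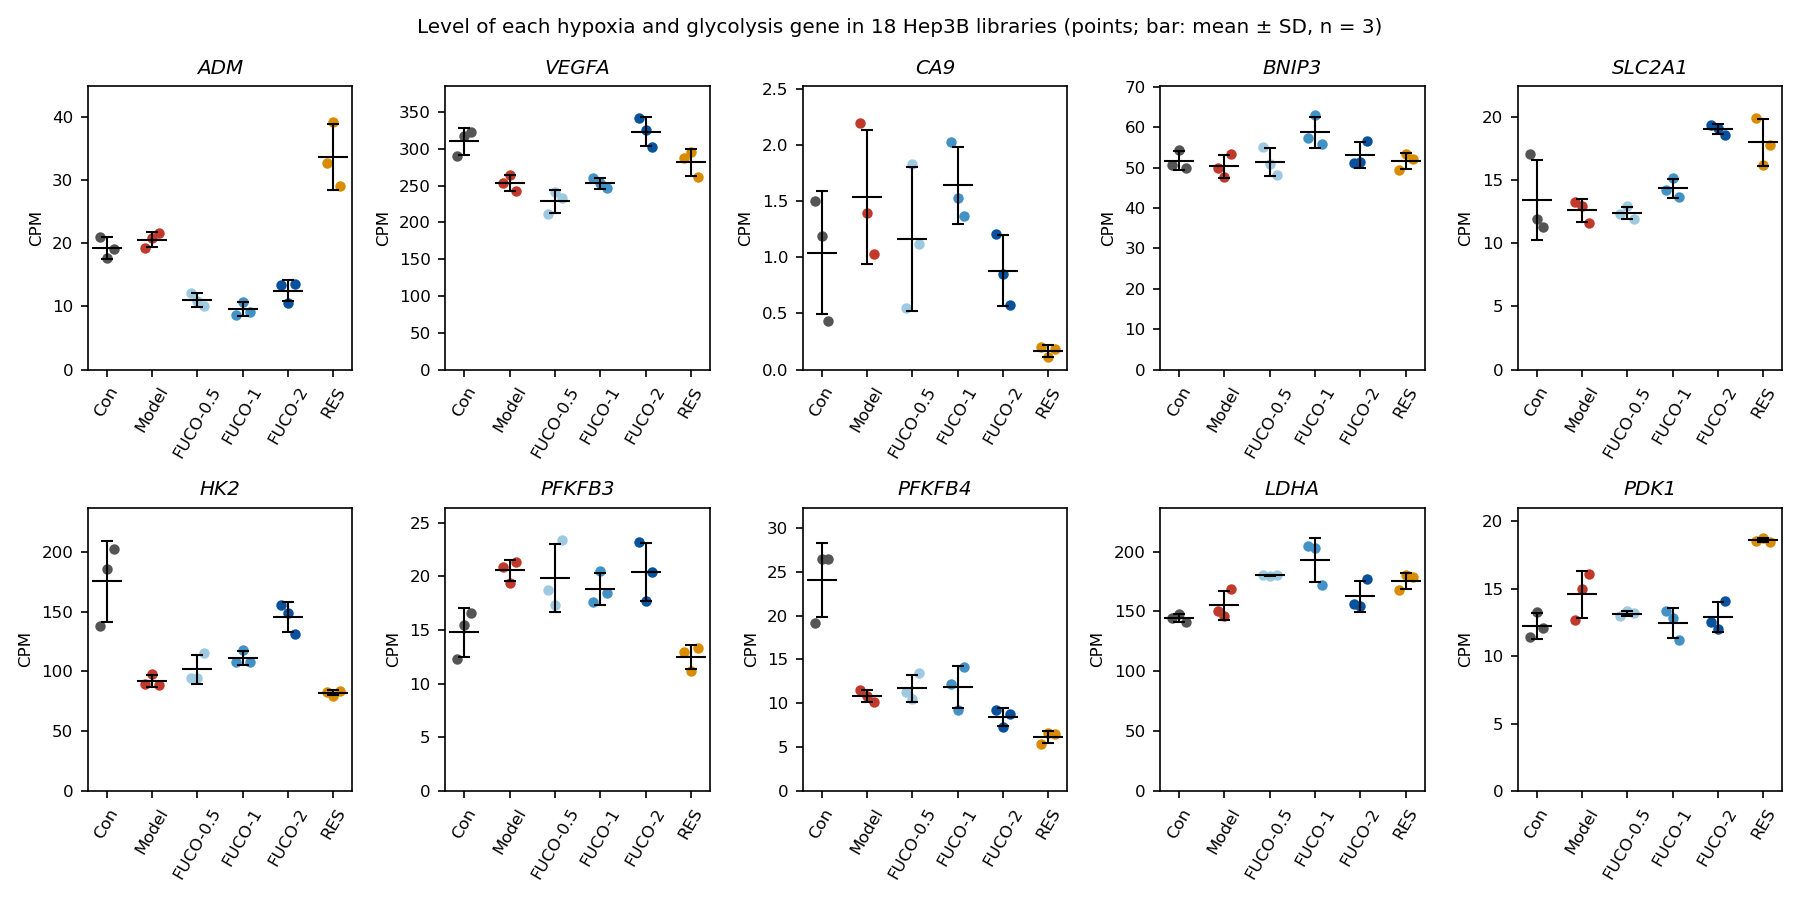
CPM of each of the 10 genes (y axis, from 0) in the 6 groups (x axis), with a point per library and a bar for the mean ± SD of 3. ADM lies lowest in the FUCO groups (9.52 to 12.5 CPM on average) and highest in RES (33.6), HK2 and PFKFB4 are highest in Con, and CA9 is near 0 in RES.

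With FFA alone, HK2, PFKFB4 and VEGFA fell and PFKFB3 rose. In the model against Con, 1 gene of the 10 was called higher and 3 lower, against 8.43% and 9.12% of all genes. At 0.5 μM FUCO, ADM alone was called, with 0 higher and 1 lower against 0.289% and 1.16% of all genes relative to the model. At 1 μM, LDHA was called higher and ADM lower, against 0.893% and 2.32%. At 2 μM, VEGFA, SLC2A1 and HK2 were called higher and ADM lower, against 10.8% and 9.71%. With RES, ADM, SLC2A1 and PDK1 were called higher and CA9, PFKFB3 and PFKFB4 lower, against 24.4% and 25.1%. These 4 treated groups were set against the same 3 model libraries, so a high or low model library moves all 4 comparisons together. The median log2 fold change of the 10 genes was 0.03 in the model against Con, −0.04, 0.12 and 0.03 at the rising FUCO doses and 0.10 with RES, and the median over all genes was within 0.01 of 0. The list did not move 1 way in any of the 5 comparisons.

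**Figure D2:**
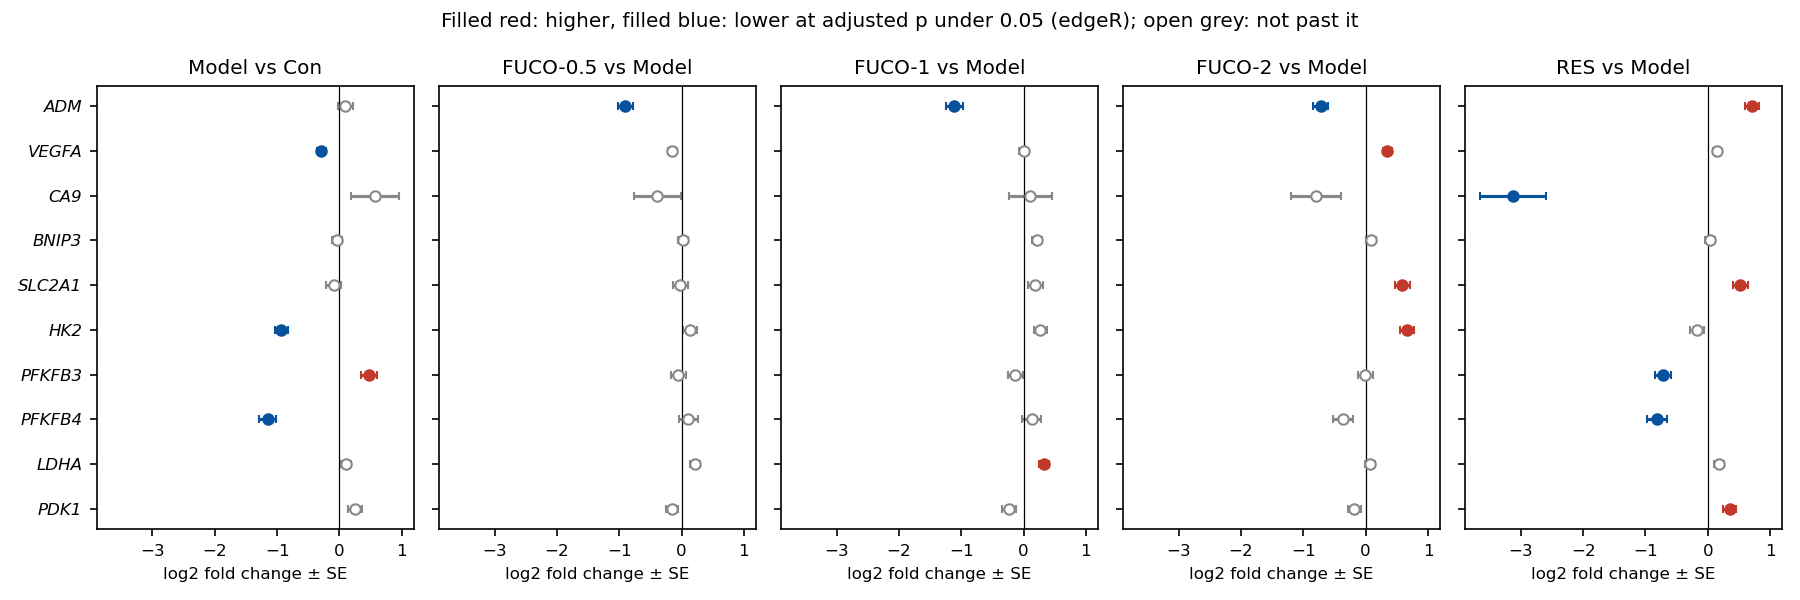
Log2 fold change from edgeR ± the SE derived from its F statistic (x axis) of each of the 10 genes (y axis) in 5 comparisons. Filled points mark an adjusted p under 0.05. ADM is to the left of 0 at all 3 FUCO doses (−0.90, −1.11 and −0.72) and to the right with RES (0.71), and CA9 stands at −3.13 with RES.

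ADM encodes adrenomedullin, a secreted vasodilator peptide. Its level was 21.0, 17.6 and 19.1 CPM in the 3 Con libraries and 19.2, 20.8 and 21.6 in the model, which overlapped (log2 0.09 ± 0.12 SE, adjusted p = 0.643). It was 12.2, 10.9 and 9.99 CPM in FUCO-0.5, 8.67, 10.8 and 9.14 in FUCO-1, and 13.3, 10.6 and 13.6 in FUCO-2. Every FUCO library lay below every Con and model library, and the 3 doses overlapped one another. Against the model ADM fell by 0.90 ± 0.12 on the log2 scale at 0.5 μM (adjusted p = 6.22e-05), by 1.11 ± 0.13 at 1 μM (1.96e-06) and by 0.72 ± 0.12 at 2 μM (0.000196). In RES it was 32.7, 39.2 and 29.0 CPM, above all libraries of the other groups. It rose by 0.71 ± 0.11 against the model (adjusted p = 1.44e-05) and by 0.80 ± 0.11 against Con (1.94e-06). RES and FUCO-2 differed from each other by 1.43 ± 0.12 (adjusted p = 6.35e-10), so ADM was 2.69-fold higher in RES.

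VEGFA, the main angiogenic growth factor of the family, followed another order. It stood at 290, 317 and 323 CPM in Con, and at 253, 265 and 242 in the model, with all model libraries below Con (log2 −0.29 ± 0.07, adjusted p = 0.00616, and −0.34 without Con replicate 1). FUCO-0.5 libraries held 211, 241 and 233 CPM and FUCO-1 libraries 260, 253 and 246, neither called against the model (adjusted p = 0.447 and 0.994). FUCO-2 libraries held 342, 326 and 302 CPM, above all model libraries and overlapping Con. The rise over the model was 0.35 ± 0.07 (adjusted p = 0.00118). RES libraries held 288, 296 and 261 CPM and overlapped both the model (adjusted p = 0.0831, or 0.0159 with the 2 groups only) and Con (0.105). Against Con, the RES value passed the threshold without Con replicate 1 (log2 −0.19, adjusted p = 0.0413), and against the model without RES replicate 3 (0.20, 0.0404). Per length, the ratio of ADM to VEGFA was 0.134 to 0.175 in Con, 0.184 to 0.216 in the model and 0.268 to 0.321 in RES. With FUCO it was 0.104 to 0.14 at 0.5 μM, 0.0806 to 0.103 at 1 μM and 0.0786 to 0.109 at 2 μM. The RES and model ratios did not overlap, and neither overlapped those at any FUCO dose. The ratios at 0.5 μM overlapped those of Con and those at 2 μM.

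CA9, a membrane carbonic anhydrase that helps acid leave the cell and a textbook HIF target, was barely expressed. Con libraries held 26, 20 and 8 counts of it and model libraries 40, 25 and 19, followed by 10, 35 and 20 in FUCO-0.5, 41, 28 and 24 in FUCO-1, and 21, 16 and 10 in FUCO-2. These 5 groups overlapped, except that FUCO-2 lay below FUCO-1, and no comparison without RES called the gene. In RES it held 5, 2 and 4 counts, below every other library. The RES libraries together held 11.1% of the model level (95% exact interval 5.31 to 20.8%, counting error only) and 16.5% of the Con level (7.79 to 32.0%). The fitted changes were −3.13 ± 0.53 against the model (adjusted p = 2.83e-05), −2.56 ± 0.58 against Con (0.000527) and −2.33 ± 0.59 against FUCO-2 (0.00218). The gene passed the filter on low counts through its levels outside RES. No library exceeded 41 counts, so moderate changes of CA9 were not detectable at this depth.

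SLC2A1 encodes GLUT1, the carrier that brings glucose into most cells. It was 17.1, 11.9 and 11.3 CPM in Con, 13.3, 12.9 and 11.6 in the model, 12.3, 12.9 and 11.9 in FUCO-0.5 and 14.2, 15.1 and 13.6 in FUCO-1, with no call in the model against Con or at either FUCO dose against the model. FUCO-2 libraries held 19.4, 19.1 and 18.6 CPM and RES libraries 19.9, 16.2 and 17.8. All 6 of these libraries lay above all model libraries. SLC2A1 rose by 0.59 ± 0.12 with FUCO-2 (adjusted p = 0.00108) and by 0.52 ± 0.12 with RES (0.000937), and these 2 groups overlapped (−0.08 ± 0.12, adjusted p = 0.602). Con replicate 1 was the highest of its group, and the sign of the model against Con turned without it (log2 0.11 in place of −0.09, neither called). Against Con, RES was higher by 0.42 ± 0.12 (adjusted p = 0.004) although the libraries overlapped, and by 0.63 without Con replicate 1 (2.38e-05).

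HK2, the hexokinase that traps glucose as glucose 6-phosphate in many tumour cells, varied most between groups among the genes averaging over 100 CPM, with a highest group mean 2.13 times the lowest. Con libraries held 138, 186 and 203 CPM, and model libraries 89.7, 97.96 and 88.9. Every model library lay below every Con library, and HK2 fell by 0.93 ± 0.11 (adjusted p = 9.9e-07), or by 1.08 without Con replicate 1. The FUCO libraries held 94.8, 94.7 and 116 CPM at 0.5 μM, 108, 118 and 108 at 1 μM, and 156, 149 and 131 at 2 μM. The means were 102, 111.5 and 145 CPM in dose order. FUCO-0.5 overlapped the model (0.14 ± 0.11, adjusted p = 0.684), FUCO-1 lay above it without passing the threshold (0.27 ± 0.11, 0.17), although it passed with the 2 groups only (0.0117) or without the filter on low counts (0.0323), and FUCO-2 was higher by 0.66 ± 0.11 (9.33e-05) and overlapped Con. RES libraries held 83.1, 79.7 and 83.7 CPM, all below the model but not called against it (−0.17 ± 0.11, adjusted p = 0.202, or 0.00896 with the 2 groups only). RES differed from Con by −1.09 ± 0.11 on the log2 scale (adjusted p = 3.74e-09) and from FUCO-2 by −0.82 ± 0.11 (6.7e-07). RES and FUCO-2 thus differed in HK2 while SLC2A1, the step before it, stood at overlapping levels.

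PFKFB3 and PFKFB4 make and break down fructose 2,6-bisphosphate, the signal that drives phosphofructokinase, and they moved apart under FFA. PFKFB3 was 12.3, 15.5 and 16.6 CPM in Con and 20.9, 19.4 and 21.3 in the model, a rise of 0.47 ± 0.13 (adjusted p = 0.00965, and 0.049 without Con replicate 1). PFKFB4 was 19.1, 26.4 and 26.4 CPM in Con and 11.5, 10.8 and 10.2 in the model, a log2 change of −1.15 ± 0.14 (4.13e-06, and −1.29 without Con replicate 1). Neither gene overlapped between these 2 groups. With FUCO, PFKFB3 held 17.4 to 23.4 CPM over 9 libraries, with no call at any dose. PFKFB4 held 10.5 to 13.4 CPM in FUCO-0.5, 9.29 to 14.1 in FUCO-1 and 7.35 to 9.27 in FUCO-2. The FUCO-2 libraries lay below the model without passing the threshold (−0.36 ± 0.16, adjusted p = 0.11). Both fell with RES, PFKFB3 to 12.96, 11.2 and 13.3 CPM (−0.72 ± 0.13, adjusted p = 4.29e-05) and PFKFB4 to 5.37, 6.62 and 6.53 (−0.82 ± 0.16, 0.000145). PFKFB3 in RES overlapped Con (−0.24 ± 0.13, adjusted p = 0.114), and was lower than Con without Con replicate 1 (−0.36, 0.0213). PFKFB4 in RES was 25.7% of Con (−1.97 ± 0.15, 6.41e-11).

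Within each library, PFKFB4 exceeded PFKFB3 per length only in Con, where the ratio was 2.00, 2.19 and 2.04. It was 0.706, 0.712 and 0.611 in the model, 0.734 to 0.772 in FUCO-0.5, 0.581 to 0.98 in FUCO-1, 0.513 to 0.553 in FUCO-2 and 0.531 to 0.757 in RES. The ratio needs no scaling between libraries, and the libraries of all 5 FFA groups lay below those of Con.

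LDHA, the lactate dehydrogenase subunit that turns pyruvate into lactate, varied over a narrow range. It was 144, 148 and 141 CPM in Con, 150, 146 and 169 in the model (0.10 ± 0.08, adjusted p = 0.39), 180, 179 and 180 in FUCO-0.5, and 204, 203 and 172 in FUCO-1. FUCO-0.5 lay above all model libraries without a call (0.21 ± 0.08, adjusted p = 0.223). FUCO-1 was higher by 0.32 ± 0.08 (0.0188), a call lost without Model replicate 1 (0.0976) or 2 (0.128) or FUCO-1 replicate 1 (0.0852) or 2 (0.0878). FUCO-2 held 156, 154 and 177 CPM and overlapped the model (0.07 ± 0.08, adjusted p = 0.585). RES libraries held 168, 180 and 179 CPM, not called against the model (0.18 ± 0.08, adjusted p = 0.0548, or 0.021 without Model replicate 3 and 0.00757 with the 2 groups only) and higher than Con by 0.28 ± 0.08 (0.00291).

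PDK1, a kinase that shuts off pyruvate dehydrogenase and so keeps pyruvate out of mitochondria, was 11.4, 13.3 and 12.1 CPM in Con and 12.7, 15.02 and 16.1 in the model, which overlapped (0.25 ± 0.11, adjusted p = 0.106, or 0.0454 without Model replicate 1). The 9 FUCO libraries held 11.2 to 14.1 CPM, and no dose was called. RES libraries held 18.6, 18.7 and 18.5 CPM, above all others. The rise was 0.35 ± 0.10 over the model (adjusted p = 0.00597, and 0.0611 without Model replicate 1), 0.60 ± 0.10 over Con (2.39e-05) and 0.53 ± 0.10 over FUCO-2 (0.000157). An overlapping antisense gene, RAPGEF4-AS1, held 2.69% as many counts. PDK4, the relative that fatty acids induce through PPARs, moved further. It rose from 4.39 ± 0.312 to 11.4 ± 0.206 CPM with FFA (1.37 ± 0.12, adjusted p = 4.87e-08) and to 26.7 ± 0.329 with RES (1.23 ± 0.10 over the model, 4.87e-10). Per length, PDK4 exceeded PDK1 by 1.31 to 1.51 times in Con, 2.80 to 3.43 in the model, 2.24 to 3.20 in the FUCO groups and 5.56 to 5.70 in RES. The Con and RES ranges overlapped no other group. Without length correction PDK1 was above PDK4 in Con (12.25 against 4.39 CPM) and in the model (14.59 against 11.36). The same held in the FUCO libraries, whose per-length ratios did not exceed the highest of the model (3.43). In RES PDK4 was above PDK1 (26.73 against 18.59 CPM). Outside RES the order of the 2 genes thus rests on the 14072-base transcript taken for PDK1.

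**Figure D3:**
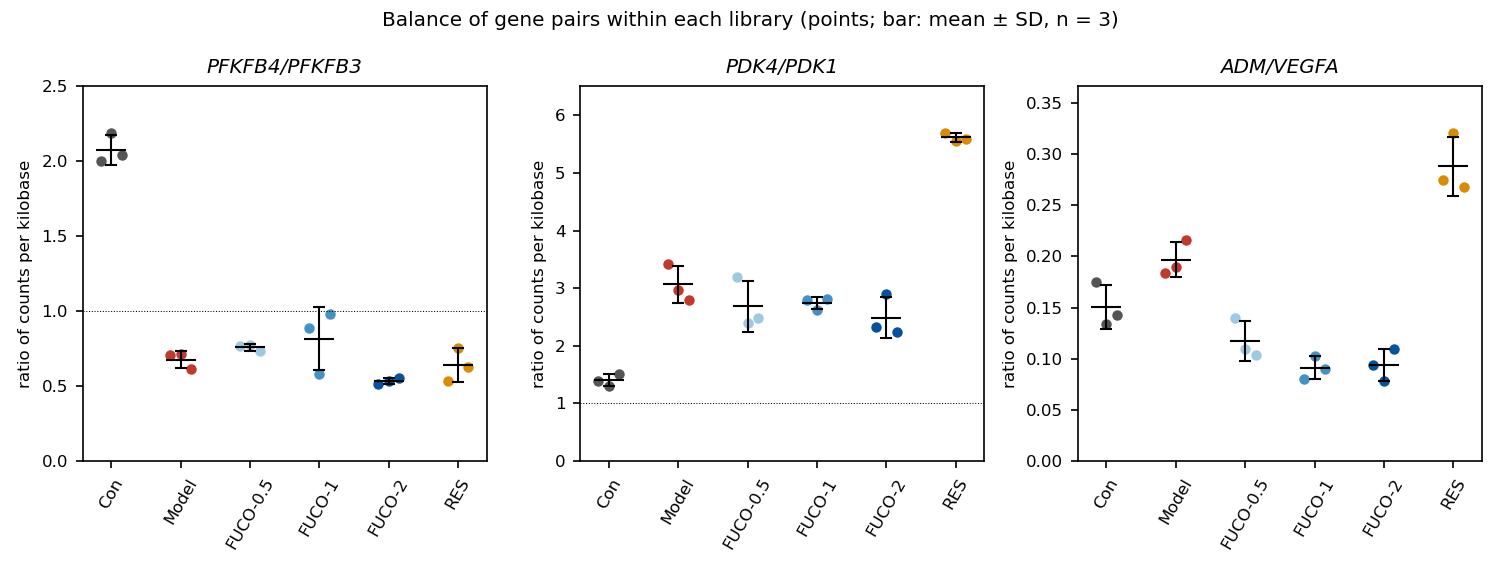
Ratio of length-corrected counts of 3 gene pairs (y axis, from 0) in each library by group, with a bar for the mean ± SD of 3 and a dotted line at 1 in the first 2 panels. PFKFB4/PFKFB3 is 2.00 to 2.19 in Con and at most 0.98 in the other libraries, PDK4/PDK1 is highest in RES (5.56 to 5.70), and ADM/VEGFA is lowest with 1 and 2 μM FUCO.

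The FUCO doses were also set against each other. Between 0.5 and 1 μM edgeR called 0 of the 10 genes, against 0% of all genes higher and 0.00687% lower. DESeq2 also called 0, and 1 gene had an unadjusted edgeR p under 0.05, BNIP3 (log2 0.19 ± 0.08). From 1 to 2 μM, VEGFA, SLC2A1 and HK2 were called higher and LDHA lower, against 4.07% and 2.23%. VEGFA rose by 0.35 ± 0.07 (adjusted p = 0.00422), and kept its call when any 1 library was left out. The other calls were near the threshold. SLC2A1 (0.41 ± 0.12, adjusted p = 0.0417) lost its call without any 1 of the 6 libraries (0.0545 to 0.148) and also without the RES libraries (0.0547). HK2 (0.38 ± 0.10, 0.028) lost it without FUCO-1 replicate 1 or 3 or FUCO-2 replicate 1 or 2 (0.076 to 0.114). LDHA (−0.25 ± 0.08, 0.0497) had overlapping libraries and lost it without replicate 1 or 2 of either group (0.105 to 0.202) without the RES libraries (0.0762) and with the 2 groups only (0.199). ADM was not called between these doses (0.39 ± 0.13, adjusted p = 0.0764), but passed without FUCO-1 replicate 2 (0.0492) or without the filter on low counts (0.0356). PFKFB4 was not called either (−0.49 ± 0.15, adjusted p = 0.0598), but passed without FUCO-1 replicate 2 (0.0166), without the filter (0.00746), with DESeq2 (0.0404) and with a replicate block (0.0474).

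RES was further set against Con and FUCO-2. Against Con, ADM, SLC2A1, LDHA and PDK1 were called higher and CA9, PFKFB4 and HK2 lower, against 28.8% and 28.5% of all genes. Against FUCO-2, ADM and PDK1 were called higher and VEGFA, CA9, PFKFB3, PFKFB4 and HK2 lower, against 22.5% and 26%. PFKFB3 differed by −0.70 ± 0.13 on the log2 scale (adjusted p = 5.8e-05). VEGFA (−0.20 ± 0.07, adjusted p = 0.0252) lost its call without FUCO-2 replicate 1 (0.0967) or 2 (0.0579) or RES replicate 3 (0.142) and with the 2 groups only (0.0726). PFKFB4 (−0.46 ± 0.16, 0.0224) lost it without FUCO-2 replicate 1 (0.0848) or 3 (0.0589) or RES replicate 1 (0.112).

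Counts for the other gene lists are to be read against the shares of all genes called higher and lower, which were 8.43% and 9.12% in the model, 0.289% and 1.16% in FUCO-0.5, 0.893% and 2.32% in FUCO-1, 10.8% and 9.71% in FUCO-2, and 24.4% and 25.1% with RES. Of 10 tested subunits and regulators of HIF, 1 was called higher and 1 lower in the model, 0 and 1 in each of FUCO-0.5 and FUCO-1, 1 and 1 in FUCO-2, and 2 and 2 with RES. In the model, in FUCO-2 and with RES these counts were near those shares. HIF1A averaged 115 CPM in Con, 107 with FFA alone and 102.5 to 117 with FUCO, with no call. In RES it was 123 CPM (0.20 ± 0.08, adjusted p = 0.0452), a call lost without any 1 model library or RES replicate 1 or 3 (0.0767 to 0.18) and without the filter (0.0549). ARNT was between 75.6 and 80.1 CPM in all groups. EPAS1, the α subunit of HIF2, fell from 257 CPM in Con to 167 in the model (−0.62 ± 0.07, adjusted p = 2.08e-06, and −0.71 without Con replicate 1). In FUCO-2 it was 198 CPM (0.25 ± 0.07, 0.019), a call lost without Model replicate 2 or 3 or FUCO-2 replicate 1 or 2 (0.0536 to 0.0757). The hydroxylases EGLN1 and EGLN3 were called in none of the 5 comparisons.

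CITED2, a brake that competes with HIF for its coactivator and is itself a HIF target, had the largest FUCO response of that list. It was 83.2, 78.8 and 82.9 CPM in Con, 105, 110 and 114 in the model, 55.6, 44.4 and 49.8 in FUCO-0.5, 43.3, 39.7 and 38.0 in FUCO-1, 50.3, 37.3 and 40.3 in FUCO-2 and 96.5, 115 and 90.8 in RES. The model lay above Con (0.42 ± 0.10, adjusted p = 0.00357), and every FUCO library lay below every Con, model and RES library. The changes from the model were −1.13 ± 0.10, −1.44 ± 0.10 and −1.36 ± 0.10 in dose order (adjusted p = 4.46e-08, 4.35e-10 and 2.54e-09). With RES, HIF3A, an α subunit whose spliced forms restrain HIF, dropped from 41, 31 and 44 counts in the model to 4, 2 and 7 (log2 −3.36 ± 0.40, adjusted p = 2.16e-07). The HIF3A value rests on few counts and, like CA9, the gene passed the filter on low counts through its levels outside RES. Also with RES, EGLN2 fell by 0.91 ± 0.14 on the log2 scale (adjusted p = 6.1e-06), and HIF1AN, the asparaginyl hydroxylase of HIF, rose by 0.31 ± 0.06 (0.000208).

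Of 26 other HIF targets tested, 4 were called higher and 5 lower in the model, 0 and 2 in FUCO-0.5, 1 and 2 in FUCO-1, 5 and 4 in FUCO-2, and 8 and 8 with RES, against 24.4% and 25.1% of all genes in the last. Their median log2 fold changes were −0.05, −0.09, −0.15, −0.07 and −0.04. EPO, the hormone for which Hep3B is a classical model under low oxygen, held 0 to 11 counts per library and was not tested. In the model, ANGPTL4, a PPAR-induced lipase inhibitor, rose by 1.30 ± 0.30 (adjusted p = 0.00388) and LOX by 0.59 ± 0.17 (0.0166, or 0.33 and 0.074 without Con replicate 1), while RORA changed by −0.68 ± 0.15 (0.00182) and BHLHE40 by −0.66 ± 0.09 (9.75e-06). BHLHE40, a clock repressor, was lower again at 0.5 μM (−0.53 ± 0.09, adjusted p = 0.00096) and 1 μM FUCO (−0.42 ± 0.09, 0.00767). At 1 μM DDIT4, an mTORC1 inhibitor, was higher (0.59 ± 0.12, 0.00519) and VLDLR lower (−0.44 ± 0.12, 0.0397). DDIT4 averaged 60.6 CPM in Con, 42.0 in the model, 63.0 in FUCO-1, 80.6 in FUCO-2 and 80.2 in RES. VLDLR averaged 13.7 CPM in Con, 11.3 in the model, 8.37 in FUCO-1, 13.8 in FUCO-2 and 26.0 in RES. At 2 μM FUCO, STC2 rose by 1.12 ± 0.09 (1.46e-08) and DDIT4 by 0.94 ± 0.12 (6.21e-06), both also known as targets of ATF4. NDRG1 (−0.72 ± 0.14, 0.000863) and MIR210HG, the host of the hypoxia miRNA miR-210 (−0.95 ± 0.20, 0.00149), were lower. RES gave STC2 at 1.78 ± 0.09 (1.18e-13), ANGPTL4 at 1.60 ± 0.22 (1.84e-06), NDRG1 at −1.76 ± 0.15 (5.92e-10) and MIR210HG at −1.78 ± 0.21 (1.98e-07).

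NDRG1 held 82.0, 65.4 and 75.6 CPM in the model, 56.5, 34.1 and 45.1 in FUCO-2 and 22.6, 23.5 and 20.01 in RES, and STC2 held 29.8, 31.0 and 31.8, then 75.6, 65.4 and 61.1, then 100, 111 and 107. None of these 3 groups overlapped another for either gene.

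Of 16 other glycolytic enzymes tested, 1 was called higher and 3 lower in the model, none at 0.5 μM FUCO, 1 and 0 at 1 μM, 2 and 0 at 2 μM, and 8 and 4 with RES, where the list's median was 0.19 and 24.4% and 25.1% of all genes were called. HK1 and LDHB, other forms of the steps of HK2 and LDHA, were at 0 to 2 counts per library and were not tested. In the model TPI1 rose by 0.21 ± 0.07 (adjusted p = 0.0417), ALDOC changed by −0.89 ± 0.14 (6.07e-05) and PKLR by −0.64 ± 0.17 (0.0116, or −0.35 and 0.108 without Con replicate 1). GPI, the isomerase that follows hexokinase, rose by 0.37 ± 0.08 at 1 μM (0.0118) and 0.39 ± 0.08 at 2 μM FUCO (0.00174), and ENO2 by 0.50 ± 0.15 at 2 μM (0.0194). GPI was highest in RES, at 180.7, 178.3 and 172.6 CPM, against 122.5, 117.5 and 123.5 in the model. With RES, ENO2 rose by 1.08 ± 0.14 (1e-06) and ALDOA by 0.57 ± 0.17 (0.00569), while ENO3 changed by −1.62 ± 0.10 (1.9e-12). PKLR, the liver pyruvate kinase, went from 42.6 CPM in the model to 3.01 (log2 −3.84 ± 0.23, adjusted p = 1.13e-12). PKLR overlaps HCN3 and ALDOA overlaps another locus, so the part of shared reads in these 2 rows is uncertain.

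Among 13 PFKFB and PDK relatives and genes of pyruvate entry, 2 were called higher and 4 lower in the model, none at 0.5 μM FUCO, 1 and 0 at 1 μM, 2 and 4 at 2 μM, and 3 and 5 with RES. In the model PDK2 rose by 0.46 ± 0.14 (adjusted p = 0.0201) beside PDK4. DLAT, a core subunit of pyruvate dehydrogenase, changed by −1.04 ± 0.11 (2.14e-07) and MPC1, a subunit of the mitochondrial pyruvate carrier, by −0.85 ± 0.08 (1.49e-07). With FUCO, the phosphatase PDP2 rose by 0.44 ± 0.11 at 1 μM (0.02) and 0.42 ± 0.11 at 2 μM (0.00721), PFKFB2 rose by 0.24 ± 0.08 at 2 μM (0.0364, or 0.15 and 0.232 without FUCO-2 replicate 3), and MPC2 (−0.55 ± 0.09, 0.00012) and PDP1 (−0.61 ± 0.18, 0.0176) were lower there. With RES, MPC1 (−0.85 ± 0.09, 1.63e-08) and MPC2 (−0.56 ± 0.09, 1.43e-05) were lower than in the model and PDK3 higher (0.47 ± 0.17, 0.0234). PDK2, another kinase that closes the pyruvate dehydrogenase gate, was lower with RES (19.39 CPM against 24.38 in the model, −0.33 ± 0.13, adjusted p = 0.0425), and was added here after its values were seen.

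Of 7 glucose and lactate carriers besides SLC2A1, 2 were called higher and 2 lower in the model, none at 0.5 or 1 μM FUCO, 2 and 1 at 2 μM, and 3 and 3 with RES. SLC16A1, the MCT1 lactate carrier, rose by 0.37 ± 0.10 with FFA (adjusted p = 0.00927), by 0.34 ± 0.09 at 2 μM FUCO (0.0112) and by 0.84 ± 0.09 with RES (4.02e-08). SLC2A10 rose by 1.70 ± 0.23 with FFA (9.75e-06), changed by −0.97 ± 0.21 at 2 μM FUCO (0.00155) and rose by 0.75 ± 0.17 with RES (0.000745). SLC2A4 (−0.47 ± 0.14, 0.0204) and SLC16A7 (−0.26 ± 0.09, 0.0351) were lower in the model, and SLC2A8 was higher at 2 μM FUCO (0.34 ± 0.12, 0.0389, or 0.17 and 0.301 without FUCO-2 replicate 1). SLC2A2, the hepatocyte carrier GLUT2, was 0.701 CPM in RES and 2.34 in the model (−1.74 ± 0.34, adjusted p = 0.00014), and SLC2A4 was lower there too (−0.82 ± 0.15, 7.37e-05). Of 4 gluconeogenic enzymes tested, 1 was lower in the model (PC, −0.38 ± 0.10, 0.0121), 1 at 0.5 μM FUCO (PCK2, −0.56 ± 0.11, 0.00774) and none at 1 or 2 μM. With RES, PCK2 rose by 1.14 ± 0.11 (9.7e-09), and FBP1 (−0.64 ± 0.15, 0.00106) and PC (−0.50 ± 0.10, 0.000303) were lower.

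The relatives and receptors of VEGFA and ADM were low or untested in part, with 8 of 12 tested. None was called higher and 3 lower in the model, none and 2 at 0.5 μM FUCO, none and 1 at 1 μM, 2 and 2 at 2 μM, and 3 and 4 with RES. PGF, the placental growth factor, was 40.8 CPM in Con and 23.2 in the model (−0.81 ± 0.10, adjusted p = 3.22e-06), then lower than the model at 0.5 μM (−0.50 ± 0.10, 0.0104), 1 μM (−0.40 ± 0.10, 0.0293) and 2 μM FUCO (−0.61 ± 0.11, 0.000226). ADM2, which encodes intermedin, a peptide that shares receptors with adrenomedullin, lay below Con in the model (−0.45 ± 0.11, 0.00431) and fell further at 0.5 μM FUCO (−0.46 ± 0.11, 0.026). It was higher than the model at 2 μM (0.31 ± 0.11, 0.0383, or 0.19 and 0.225 without FUCO-2 replicate 1) and with RES (0.26 ± 0.11, 0.049). Of the VEGF coreceptors, NRP1 was lower at 2 μM FUCO (−0.55 ± 0.08, 4.25e-05) and with RES (−0.93 ± 0.08, 1.39e-09), while NRP2 was higher (1.15 ± 0.26, 0.00271, and 1.49 ± 0.25, 2.06e-05). RAMP2, which makes the adrenomedullin receptor with CALCRL, was lower with RES (−1.04 ± 0.18, 2.92e-05).

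**Figure D4:**
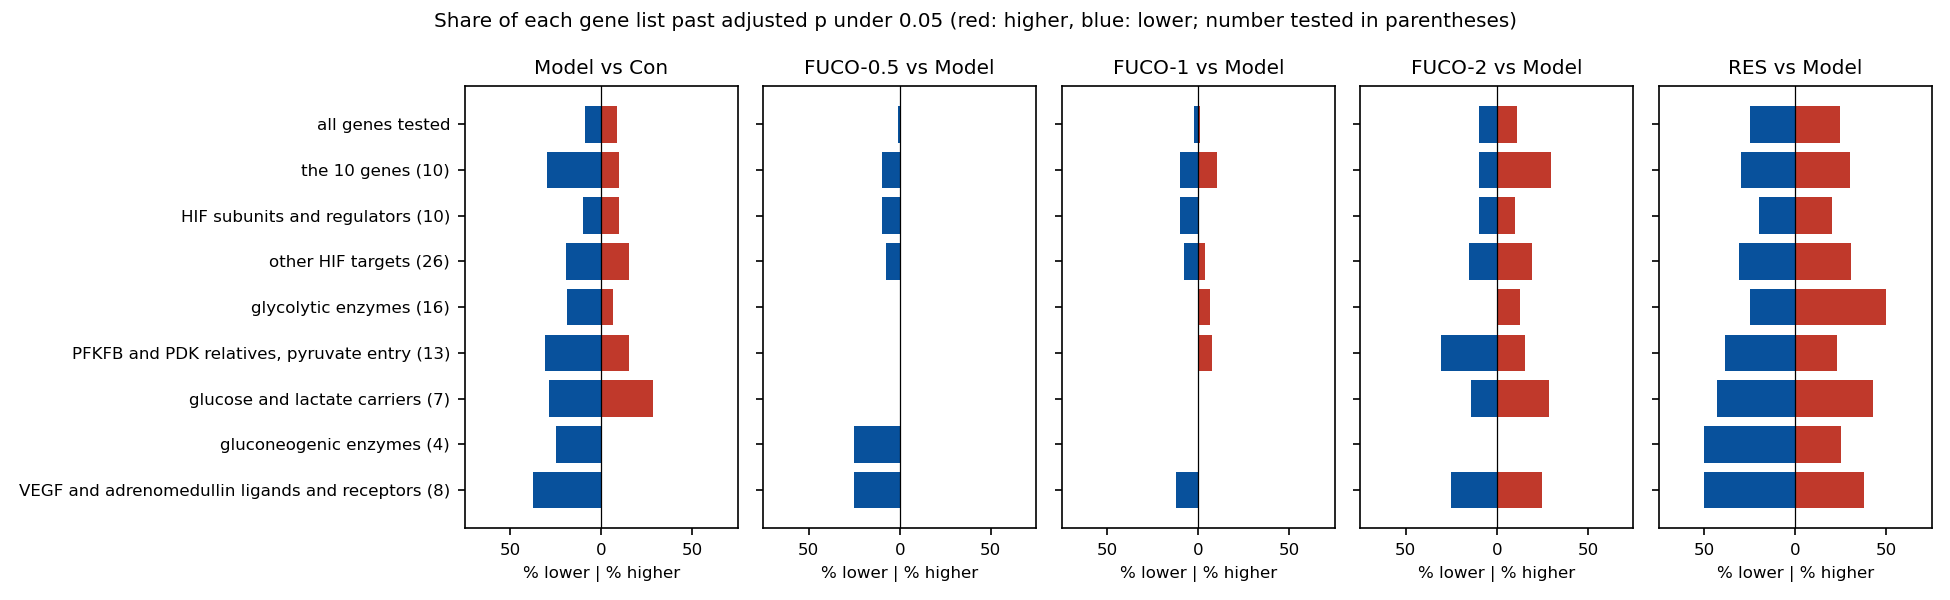
Share of each gene list called higher (right, red) or lower (left, blue) in 5 comparisons (x axis, % of the genes tested), with all 14557 genes in the top row and the number tested of each list in parentheses. Within the gene lists, calls in both directions appear in every comparison except FUCO-0.5 against the model, where all list calls are lower. With RES the background is already 24.4% higher and 25.1% lower.

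Several of these calls on other pathway genes were lost when 1 library was left out, and in most of them 1 of several libraries sufficed. Leaving out 1 library ended, in the model against Con, the calls of TPI1 (adjusted p up to 0.19, without Con replicate 2 or 3 or Model replicate 1 or 3), PDK2 (0.118, the same 4 libraries), SLC2A4 (0.0971, the same 4), SLC16A7 (0.158, any but Model replicate 2), LOX (0.074, Con replicate 1 or Model replicate 2), PKLR (0.108, Con replicate 1 or Model replicate 2) and PC (0.0712, Con replicate 1 or Model replicate 3). At 0.5 μM FUCO it ended those of ADM2 (0.188, any but FUCO-0.5 replicate 3), PGF (0.0824, Model replicate 1 or FUCO-0.5 replicate 2) and PCK2 (0.0571, Model replicate 2 or FUCO-0.5 replicate 1). At 1 μM the lost calls were VLDLR (0.176, Model replicate 2 or 3 or FUCO-1 replicate 1 or 3), PGF (0.146, any but FUCO-1 replicate 3), PDP2 (0.123, Model replicate 1 or 3 or FUCO-1 replicate 1), GPI (0.074, Model replicate 2 or FUCO-1 replicate 3), BHLHE40 (0.0621, Model replicate 3 or FUCO-1 replicate 2) and DDIT4 (0.0516, Model replicate 2). At 2 μM they were SLC2A8 (0.301, any model library or FUCO-2 replicate 1), PFKFB2 (0.232, any model library or FUCO-2 replicate 3), ADM2 (0.225, any model library or FUCO-2 replicate 1), SLC16A1 (0.11, FUCO-2 replicate 2), PDP1 (0.0808, Model replicate 3 or FUCO-2 replicate 3) and ENO2 (0.075, Model replicate 1 or 2). With RES they were ADM2 (0.138, any library), PDK2 (0.176, Model replicate 1 or 3 or RES replicate 2 or 3) and PDK3 (0.124, Model replicate 1 or 2 or RES replicate 1 or 2). DESeq2 did not call PKLR in the model (0.0538) or ADM2 with RES (0.0634). A fit without the RES libraries did not call TPI1 or SLC16A7 in the model, VLDLR or PGF at 1 μM, or PFKFB2, SLC2A8 or ADM2 at 2 μM (0.0514 to 0.0659).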

How the data were processed

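Hep3B libraries were grouped and numbered by their titles. Per the labels and the study's methods, the authors trimmed paired-end reads with fastp, aligned them with STAR to GRCh38.p14 and counted reads per gene with featureCounts, and the deposited counts are whole numbers without normalization. The strand setting and the handling of multiply matching reads are not given in the sources used here. All 18 columns were used.

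The 10 genes, the pathway lists and the rule for other named genes were chosen with earlier results of these data known. That rule took, per list and comparison, up to 2 called genes with the largest rise and up to 2 with the largest fall, averaging 1 CPM or more over the 18 libraries, where the groups did not overlap, plus EPO, HIF1A, EPAS1, ARNT, EGLN1 and EGLN3. Some genes that the lists hold are not reported here by name. R 4.3.3 and edgeR 4.0.16 were used (filterByExpr with a minimum count of 10 and total of 15, TMM, 1 quasi-likelihood fit with the 6 groups as terms, prior count 0.125), leaving 14557 genes that hold 99.9% of counts. The fit was tested on simulated counts. Library totals of 16916688 to 23083498 set the precision. Reads carry no molecular identifiers, so the 95% interval of CA9 covers counting error only. Per-length levels use the Ensembl canonical transcript of GENCODE, which is not the release named in the study's methods. Promoters are from RefSeq.

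Alternatives were DESeq2 1.42.0 (the study's tool), 2 groups only, no RES libraries, RLE factors, no filter, at least 10 counts in every library, a fold threshold, a replicate block and leaving out each library. Leaving out libraries for the test among all groups was added after seeing the data. No 2 replicates were alike within sampling noise (chi-square per degree of freedom 2.34 to 20.0).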

Additional observations from a re-analysis of the deposited data

Results flagged for a closer look

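ADM moved in opposite directions under the 2 agents, each set against the same model libraries. Its log2 fold change was −0.90 in FUCO-0.5, −1.11 in FUCO-1 and −0.72 in FUCO-2, and 0.71 with RES. All FUCO libraries lay below and all RES libraries above the model libraries. The difference between RES and FUCO-2 was tested directly and was 1.43 (edgeR adjusted p = 6.35e-10), while RES was not tested directly against FUCO-0.5 or FUCO-1. The RES dose is not given in the sources used here, so the doses are not matched.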

How the results depend on the processing

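Requiring an absolute log2 fold change over 1 left 1 gene of the 10 called in the model against Con, 0, 1 and 0 at 0.5, 1 and 2 μM FUCO, 1 in RES against the model, 0 in FUCO-2 against FUCO-1, 3 in RES against Con and 2 in RES against FUCO-2. When 1 library was left out, FUCO-1 against the model gave 1 to 2 calls and FUCO-2 against FUCO-1 gave 1 to 4, and without the RES libraries the latter gave 2. The shares of all genes called under these settings are not given here. The counts are therefore not to be read as a result about the 10 genes. Of 1129 alternative values for single genes among the 10, 1056 kept direction and side of the threshold, 30 lost and 16 gained a call and 27 changed sign. For called values, 401 of 431 were kept. None of the sign changes concerned a called value. With 1 library left out they were SLC2A1 in the model against Con (−0.21 to 0.11), PFKFB3 (−0.19 to 0.03), SLC2A1 (−0.08 to 0.02) and BNIP3 (−0.02 to 0.08) at 0.5 μM FUCO, VEGFA (−0.03 to 0.03), CA9 (−0.12 to 0.45) and PFKFB4 (−0.01 to 0.28) at 1 μM, and PFKFB3 at 2 μM (−0.11 to 0.08). Between FUCO-1 and FUCO-0.5 they were PFKFB3 (−0.16 to 0.06) and PFKFB4 (−0.12 to 0.17), between FUCO-2 and FUCO-1 PDK1 (−0.02 to 0.1), and for BNIP3 RES against Con (−0.03 to 0.03) and against FUCO-2 (−0.06 to 0.01). VEGFA at 1 μM was also 0.01 with 2 groups only and without the filter, and 0.00 without the RES libraries and with at least 10 counts in every library. The causes were not tested. CA9 has no value under the last of these settings, since its counts are too low.

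Whether replicate numbers pair the libraries was checked by description only. Same-numbered libraries correlated by −0.372 to 0.331 in their deviations, over 0.1 in 12 of 45 pairs. Most of these were in replicate 2, with 8 of 15 pairs over 0.1 and a median of 0.108. Replicates 1 and 3 had 2 of 15 pairs each, with medians of 0.0393 and 0.017. With a replicate block, 4 of the genes described here were called in the model against Con, beside 2617 of all 14557 genes tested. At the rising FUCO doses 1, 2 and 4 were called, beside 235, 510 and 3040 of all genes. For RES against the model, Con and FUCO-2 the counts were 6, 7 and 7, beside 7275, 8406 and 7128. For FUCO-1 against FUCO-0.5 the count was 0, beside 8 of all genes. For FUCO-2 against FUCO-1 it was 4, beside 1012. Among all groups 9 were called, beside 9874 of all genes. In FUCO-2 against FUCO-1 the block ended the call of LDHA (adjusted p = 0.0522) and gave one to PFKFB4 (0.0474).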
